A study of Mus musculus with 43 samples.

Results

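The Hox cluster genes are the genes of the table whose symbol is Hox, a cluster letter from a to d and a position number. They numbered 39 of the 22462 genes in the table, with 11 in HoxA, 10 in HoxB, 9 in HoxC and 9 in HoxD. The values came from E14 cells (ES-E14TG2a), a mouse embryonic stem (ES) cell line grown with serum and LIF on gelatin, in a line with a knockout of MTF2 and in control E14 cells. MTF2 is a Polycomb-like subunit of Polycomb repressive complex 2 (PRC2), which methylates lysine 27 of histone H3, and the series asked how Polycomb-like proteins bring PRC2 to CpG islands. RNA-seq of polyadenylated RNA covered 3 knockout and 3 control libraries, called biological replicates by the series. The labels do not say how the knockout was made or whether the line is 1 clone. ChIP-seq libraries of the series were left aside.

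Hox genes encode homeodomain transcription factors that set the identity of body segments along the head-to-tail axis. They lie in clusters in which order along the DNA matches order of use. The genes at the 3′ end (low numbers) act first and nearest the head, and those at the 5′ end (high numbers) act last and nearest the tail. In ES cells the clusters are a textbook target of PRC2, held nearly silent under histone H3 lysine 27 trimethylation until differentiation signals such as retinoic acid open them.

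The table held 1 pooled FPKM value (fragments per transcript length and sequencing depth) per gene and group. FPKM is a level per transcript length, so levels can be set side by side between genes. No SD, n per value or depth per library can be given. A gene counts as tested where the authors' tool Cuffdiff reported status OK, and as called where its deposited q was at or under 0.05. Mtf2 itself stood at 44.7 FPKM in knockout cells and 74.3 FPKM in control cells (q = 0.0496 in the authors' deposited table). Since the labels do not say what was changed in the gene, this level was not used as a check of the label.

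The Hox clusters were nearly silent in both groups, and 1 Hox gene was called. Of the 39 genes, 29 stayed under 1 FPKM in both knockout and control cells, against 46.6% of all genes in the table. The count was 9 of 11 in HoxA, 8 of 10 in HoxB, 5 of 9 in HoxC and 7 of 9 in HoxD. Of the members, 10 reached 1 FPKM in knockout cells and 4 did in control cells. The 4 were Hoxa7, Hoxc12, Hoxc13 and Hoxd8, which also reached it in knockout cells. Hoxa10, Hoxb8, Hoxb9, Hoxc9, Hoxc11 and Hoxd4 reached it in knockout cells alone. Over all 22462 genes, 11480 reached 1 FPKM in knockout cells and 11051 in control cells. Among the 7868 genes above 0 in a group and under 5 FPKM in both, 2915 did in knockout cells and 2523 in control cells. No Hox gene exceeded 3.15 FPKM in knockout cells or 4.61 FPKM in control cells, and the median Hox level was 0.297 FPKM in knockout cells and 0.182 FPKM in control cells. The median over all genes was 1.15 FPKM in knockout cells and 0.899 FPKM in control cells.

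**Figure D1:**
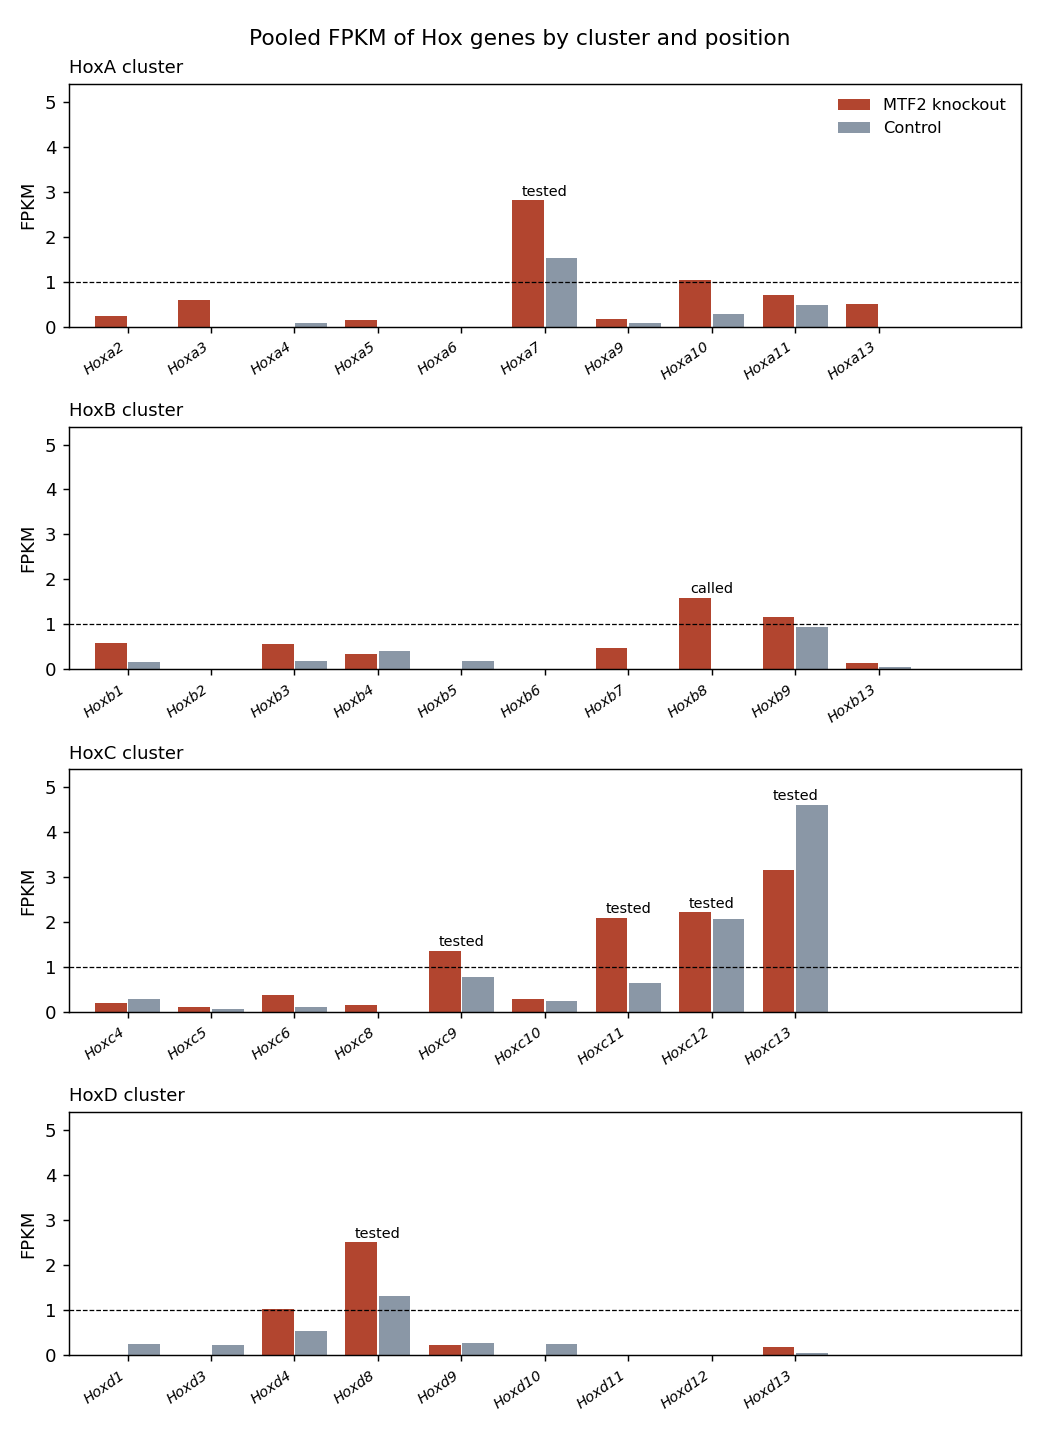
Pooled FPKM (y axis) of the Hox genes shown in MTF2 knockout cells (red bars) and control cells (grey bars), 1 panel per cluster, with genes in order of position. The dashed line is 1 FPKM, and "tested" and "called" mark the 7 genes that the authors' tool tested and the 1 it called; most bars lie under the line, and the tallest belong to Hoxc13.

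The authors' tool tested 7 of the 39 Hox genes, against 50.6% of all genes. No gene in the table was tested unless it reached 1.34 FPKM in a group. The 32 untested members lay at or under 1.16 FPKM in both groups. A member that is low in control cells could therefore be tested only through a higher knockout value, and the direction of the tested members gives no support on its own. Hoxb8 was called, which is 1 of 7 tested, beside 12.9% called among all 11362 tested genes and 6.9% called higher. Among the 2772 tested genes under 5 FPKM in both groups, the range of the Hox genes, 4.91% were called. By any amount, 6 of the 7 had a higher value in knockout cells, beside 49.8% of all tested genes and 58.5% of those under 5 FPKM.

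Hoxb8 (ENSMUSG00000056648.5, mm10 chr11:96281905-96285315), a trunk gene also known for roles in blood progenitors and microglia, stood at 1.59 FPKM in knockout cells and was listed at 0 in control cells. Its q was 0.0012 in the authors' deposited table, which gives no test statistic for it. An exact 0 can be a failed estimate, so no fold is given. Of the 70 tested genes listed at 0 in control cells, 35 were called. On its 5′ side lies Hoxb9, a rib-patterning gene, with 1.16 FPKM in knockout and 0.950 FPKM in control cells. On its 3′ side, Hoxb7 had 0.485 FPKM in knockout cells and was listed at 0 in control cells, and Hoxb6 was listed at 0 in both. The value of Hoxb8 in knockout cells was thus above that of each neighbour in the cluster, while in control cells Hoxb9 was the highest HoxB gene.

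The other tested members were not called. Hoxc13 (chr15:102921103-102928814), a regulator of hair keratin genes and the 5′ end of its cluster, was the highest Hox gene in both groups, at 3.15 FPKM in knockout cells and 4.61 FPKM in control cells. Its log2 ratio was -0.48 (q = 0.468 in the authors' deposited table). Log2 ratios here are of knockout over control FPKM after 0.5 FPKM was added to each, which understates changes of low genes. Of the 7 tested members, Hoxc13 was the one with a lower value in knockout cells. Next to it, Hoxc12 (chr15:102936757-102938609) was nearly level, at 2.22 FPKM in knockout cells and 2.08 FPKM in control cells (log2 ratio 0.07, q = 0.963 in the authors' deposited table).

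Hoxc11 (chr15:102954427-102957708), a gene of the sacral and hindlimb region, had 2.104 FPKM in knockout cells and 0.659 FPKM in control cells. Its log2 ratio of 1.17 was the largest among tested members with a value above 0 in both groups, with q = 0.272 in the authors' deposited table. Hoxc9 (chr15:102977032-102985099), which marks thoracic levels of the spinal cord, had 1.37 FPKM in knockout cells and 0.779 FPKM in control cells (log2 ratio 0.55, q = 0.606 in the authors' deposited table). Neighbouring members of HoxC thus had values on either side of their control level.

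Hoxa7 (chr6:52214498-52218711) and Hoxd8 (chr2:74704615-74707933), both trunk genes, were the highest members of their clusters in both groups. Hoxa7 had 2.81 FPKM in knockout cells and 1.52 FPKM in control cells, with a log2 ratio of 0.71 (q = 0.571 in the authors' deposited table). Hoxd8 had 2.51 FPKM in knockout cells and 1.31 FPKM in control cells, with a log2 ratio of 0.73 (q = 0.801 in the authors' deposited table). Their differences were of like size, and neither was called.

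The promoters of Hoxb8, Hoxa7 and Hoxd8 are shown because these are the called gene and the leading genes of HoxA and HoxD, and because CpG dinucleotides are the feature to which the study ties PRC2. The sequences are from RefSeq (build GRCm38.p6), 250 bases before to 50 bases after the gene start, 5′ to 3′ on the gene's strand, with each CpG in capitals.
Hoxb8 (chr11:96281655-96281954, plus strand): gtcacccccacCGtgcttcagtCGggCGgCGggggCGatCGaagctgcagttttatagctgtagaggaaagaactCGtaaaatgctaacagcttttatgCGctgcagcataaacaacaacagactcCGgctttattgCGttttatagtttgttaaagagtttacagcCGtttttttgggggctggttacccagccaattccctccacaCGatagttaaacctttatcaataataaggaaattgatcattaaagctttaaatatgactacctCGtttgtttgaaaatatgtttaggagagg
Hoxa7 (chr6:52218524-52218823, minus strand): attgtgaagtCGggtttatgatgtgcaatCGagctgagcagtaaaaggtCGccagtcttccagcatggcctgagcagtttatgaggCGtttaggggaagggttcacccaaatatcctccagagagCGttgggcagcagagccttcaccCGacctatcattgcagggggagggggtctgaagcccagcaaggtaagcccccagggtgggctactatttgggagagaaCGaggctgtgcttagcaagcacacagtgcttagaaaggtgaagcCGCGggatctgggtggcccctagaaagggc
Hoxd8 (chr2:74704365-74704664, plus strand): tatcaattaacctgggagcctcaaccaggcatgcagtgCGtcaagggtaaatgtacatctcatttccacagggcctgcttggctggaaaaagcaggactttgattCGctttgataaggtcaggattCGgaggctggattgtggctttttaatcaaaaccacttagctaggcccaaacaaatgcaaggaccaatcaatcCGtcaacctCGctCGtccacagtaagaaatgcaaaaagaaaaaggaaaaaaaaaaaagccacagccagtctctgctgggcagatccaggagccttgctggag
These windows hold 13 CpGs for Hoxb8, 9 for Hoxa7 and 6 for Hoxd8. In Hoxb8 most of them lie in the distal part of the window, while the sequence near the start is rich in A and T.

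Of the 39 members, 22 had a promoter entry, with 24 windows. The Hox windows held a median of 14.5 CpGs, with a range of 4 to 45, and all 32841 promoter windows a median of 7. The 6 windows of the 5 Hox genes at 1 FPKM or more in a group held a median of 10.5 CpGs (4 to 21). These genes were Hoxa7, Hoxa10, Hoxb8, Hoxd4 and Hoxd8, so the other members at that level, Hoxb9, Hoxc9, Hoxc11, Hoxc12 and Hoxc13, are not in this comparison. The 18 windows of the 17 genes under 1 FPKM in both groups held a median of 20 CpGs (4 to 45). The ranges overlap, and no test was made. The TATA box core TATAAA, searched on both strands, was in 4 of the 24 Hox windows (16.7%), and in 13.6% of all windows. The caudal core TTTATG was in 5 Hox windows (20.8%), and in 11.9% of all, and the PBX and HOX core TGATNNAT in 4 (16.7%), and in 8.85% of all. No matches of different motifs overlapped in the Hox windows. The Hoxb8 window held 2 matches of TATAAA, 2 of TTTATG and 1 of TGATNNAT. Hoxa7 held 2 of TTTATG, and Hoxd8 held none of the 3 motifs.

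Each cluster had a higher summed level in knockout cells. The summed FPKM was 6.71 in knockout and 3.26 in control cells for HoxA, 4.87 and 1.93 for HoxB, 10.0 and 8.87 for HoxC, and 3.96 and 2.89 for HoxD. As ratios of knockout over control sums, these were 2.06 for HoxA, 2.53 for HoxB, 1.13 for HoxC and 1.37 for HoxD. The ratio was 0.90 over all genes, and 1.16 over the 7868 genes above 0 in a group and under 5 FPKM in both. The HoxC ratio was thus no higher than that of low genes in general. Without the highest gene of each cluster, the sums were 3.90 in knockout and 1.74 in control cells for HoxA, 3.28 and 1.93 for HoxB, and 6.85 and 4.25 for HoxC. For HoxD, the sum without Hoxd8 was 1.45 in knockout cells and 1.58 in control cells, so its direction rested on that gene. HoxC held 39.2% of the summed Hox level in knockout cells and 52.3% in control cells. Hoxc12 and Hoxc13 together held 21.0% in knockout cells and 39.5% in control cells.

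**Figure D2:**
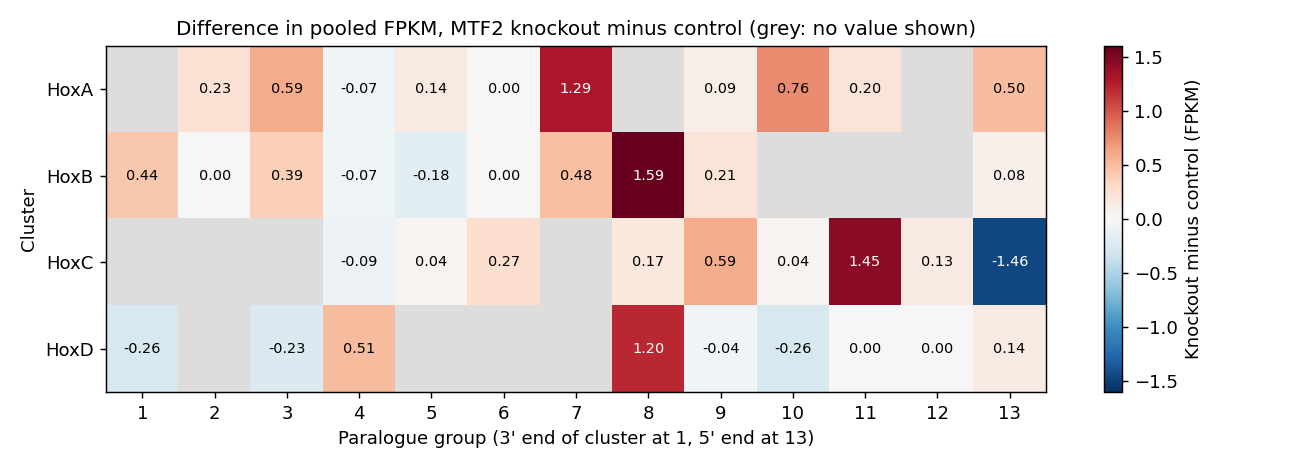
Knockout minus control FPKM for Hox genes, with clusters as rows and paralogue groups as columns; red is higher in knockout cells, blue is lower, and grey marks positions with no value shown. The strongest colours are Hoxb8, Hoxc11, Hoxa7 and Hoxd8 in red and Hoxc13 in blue, and the other genes shown differ by less than 1 FPKM.

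Of the 34 Hox genes above 0 in at least 1 group, 24 had a higher value in knockout cells and 10 a lower one. The higher share was 53.6% over all genes above 0, and 60.8% over the 7868 genes above 0 and under 5 FPKM in both groups, the range in which all Hox genes lie. The median log2 ratio over the 39 genes was 0.20, beside 0.00 over all genes and 0.16 over those 7868. By the size rule of at least 2-fold on the ratio scale, 3 Hox genes were higher, beside 6.95% of all genes, and 0 were lower, beside 4.2% of all genes. Among those 7868 low genes, 871 were higher and 475 lower by the same rule. The 3 Hox genes were Hoxc11, and Hoxb8 and Hoxa3, both listed at 0 in control cells. With 0.1 FPKM added instead of 0.5, 12 were higher and 4 lower, and with 1 FPKM added, Hoxb8 alone was higher. The difference between knockout and control was under 1 FPKM for 34 of the 39 genes.

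The 3′ end of the clusters stayed low. All 8 genes of positions 1 to 3 lay under 1 FPKM in both groups. Hoxb1, a hindbrain gene and early retinoic acid target, had 0.593 FPKM in knockout and 0.157 FPKM in control cells, and Hoxd1 was listed at 0 in knockout cells, against 0.256 FPKM in control cells. Hoxb1 and Hoxd1 therefore differed in direction. Hoxa2, which patterns the branchial arches, had 0.228 FPKM in knockout cells and was listed at 0 in control cells, and Hoxb2 was listed at 0 in both. Hoxa3, needed for thymus and parathyroid, had 0.592 FPKM in knockout cells and was listed at 0 in control cells. Hoxb3 had 0.570 FPKM in knockout cells and 0.184 FPKM in control cells, while Hoxd3 was listed at 0 in knockout cells, against 0.228 FPKM in control cells.

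The middle of the clusters, positions 4 to 8, held 15 genes, of which 11 were under 1 FPKM in both groups. Their sum was 9.77 FPKM in knockout cells and 4.49 FPKM in control cells. Hoxa7, Hoxb8 and Hoxd8 made up most of it. Hoxd4, a hindbrain and neck gene, had 1.04 FPKM in knockout cells and 0.526 FPKM in control cells. The other group 4 genes were lower in knockout cells by small amounts: Hoxb4 had 0.333 FPKM in knockout and 0.401 FPKM in control cells, Hoxc4 had 0.199 FPKM in knockout and 0.290 FPKM in control cells, and Hoxa4 was listed at 0 in knockout cells, against 0.0743 FPKM in control cells. Of group 5, Hoxa5, which acts in lung development, had 0.142 FPKM in knockout cells and was listed at 0 in control cells. Hoxb5 was listed at 0 in knockout cells, against 0.182 FPKM in control cells, and Hoxc5 had 0.110 FPKM in knockout and 0.0709 FPKM in control cells. Hoxc6 had 0.383 FPKM in knockout and 0.113 FPKM in control cells, and Hoxa6, like Hoxb6, was listed at 0 in both. Hoxc8, which acts in brachial motor neurons, had 0.170 FPKM in knockout cells and was listed at 0 in control cells. All 3 genes of group 8 thus had higher values in knockout cells, with a sum of 4.27 FPKM there and 1.31 FPKM in control cells. Of these, Hoxb8 alone was called, and Hoxb8 and Hoxc8 were listed at 0 in control cells. Hoxa7 and Hoxb7, the genes of group 7, were also higher in knockout cells, so this was not particular to group 8.

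The 5′ part, positions 9 to 13, held 16 genes, of which 10 were under 1 FPKM in both groups, and summed to 13.2 FPKM in knockout cells and 10.8 FPKM in control cells. The 5 HoxC genes at these positions made up 9.14 FPKM of the knockout sum and 8.39 FPKM of the control sum. Hoxa10, which patterns the lumbar region and the uterus, had 1.03 FPKM in knockout cells and 0.275 FPKM in control cells. Hoxa11, a limb and kidney gene, had 0.692 FPKM in knockout and 0.490 FPKM in control cells. Hoxa13, which acts in digits and gut end, had 0.497 FPKM in knockout cells and was listed at 0 in control cells. Hoxa9, known from blood stem cells, had 0.163 FPKM in knockout and 0.0684 FPKM in control cells, so the 4 HoxA genes at these positions all had higher knockout values. Hoxb13, a tail and prostate gene, had 0.136 FPKM in knockout and 0.0516 FPKM in control cells, and Hoxc10 had 0.297 FPKM in knockout and 0.257 FPKM in control cells.

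Of the clusters, HoxD had the lowest sum at positions 9 to 13, with 0.413 FPKM in knockout and 0.573 FPKM in control cells. Hoxd13, a digit gene, had 0.188 FPKM in knockout and 0.0507 FPKM in control cells. Hoxd11 and Hoxd12, both limb genes, were listed at 0 in both groups. Hoxd10 was listed at 0 in knockout cells, against 0.256 FPKM in control cells, and Hoxd9 had 0.225 FPKM in knockout and 0.267 FPKM in control cells. In all, 5 of the 39 Hox genes were listed at 0 in both groups, 7 in control cells alone and 5 in knockout cells alone. Of all 22462 genes, 26.7% were listed at 0 in both groups, 1616 genes in control cells alone and 829 in knockout cells alone.

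**Figure D3:**
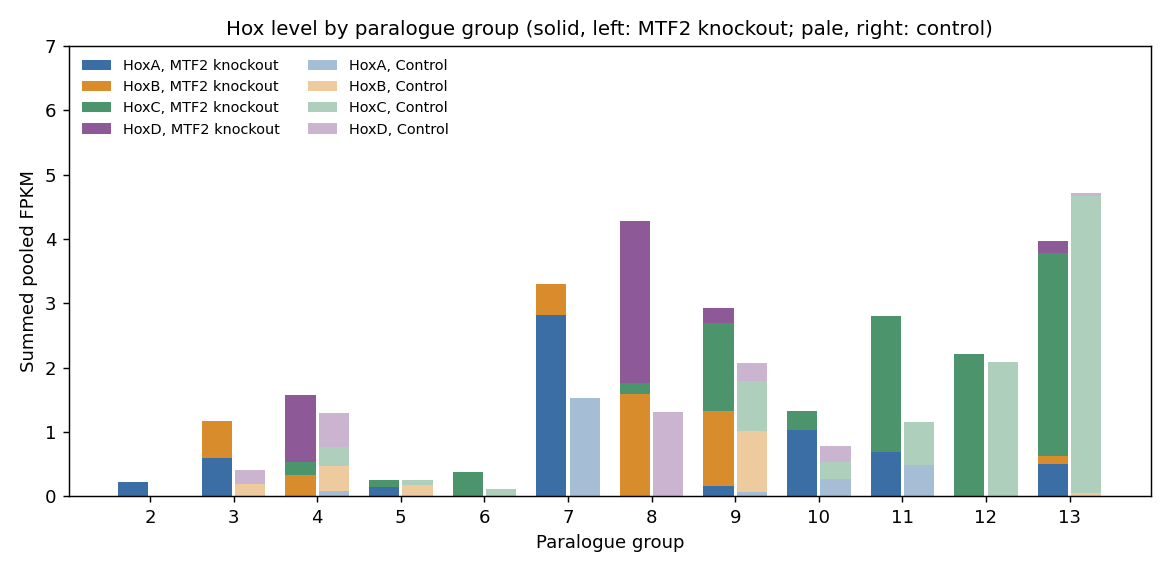
Summed pooled FPKM (y axis) of the Hox genes of paralogue groups 2 to 13 (x axis), stacked by cluster, with knockout cells in solid bars on the left and control cells in pale bars on the right of each pair. Group 8 stands at 4.27 FPKM in knockout cells and 1.31 FPKM in control cells, and group 13, in which Hoxc13 is the largest part, at 3.97 FPKM in knockout cells and 4.71 FPKM in control cells.

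Within 400 kb of the cluster ends the table held 37 other genes, of which 28 were tested. Of the tested ones, 4 were called lower, beside 6.03% of all tested genes, and 0 higher (Cuffdiff q, with 2 higher at an unadjusted p under 0.05). By any amount, 23 of the 28 were lower in knockout cells, beside 50.2% of all tested genes. The HoxA cluster lies between Skap2, with 29.0 FPKM in knockout and 38.1 FPKM in control cells, and Hibadh, with 26.6 FPKM in knockout and 34.2 FPKM in control cells. HoxB lies between Ttll6, with 0.926 FPKM in knockout and 2.31 FPKM in control cells, and Snx11, with 13.1 FPKM in knockout and 13.4 FPKM in control cells. HoxC lies between Calcoco1, with 60.1 FPKM in knockout and 52.9 FPKM in control cells, and Smug1, with 4.85 FPKM in knockout and 5.05 FPKM in control cells. HoxD lies between Lnpk, with 1.82 FPKM in knockout and 2.79 FPKM in control cells, and Mtx2, with 3.59 FPKM in knockout and 4.95 FPKM in control cells. These are the nearest genes on each side at 1 FPKM or more in a group, and none of the 8 was called.

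The called neighbours were on the Hoxb13 side of HoxB and the Hoxc13 side of HoxC. Calcoco2, an autophagy receptor gene, had 7.93 FPKM in knockout and 22.6 FPKM in control cells (q = 0.0059 in the authors' deposited table). Atp5g1, a subunit of mitochondrial ATP synthase, had 86.5 FPKM in knockout and 171 FPKM in control cells (q = 0.00454 in the authors' deposited table). Snf8, an ESCRT subunit, had 47.7 FPKM in knockout and 97.1 FPKM in control cells (q = 0.00303 in the authors' deposited table), and Tarbp2, a Dicer partner, had 43.0 FPKM in knockout and 83.9 FPKM in control cells (q = 0.00518 in the authors' deposited table). Evx1, the homeobox gene next to Hoxa13, had 0.867 FPKM in knockout and 0.130 FPKM in control cells and was not tested. Evx2, next to Hoxd13, was listed at 0 in knockout cells, against 0.0844 FPKM in control cells.

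**Figure D4:**
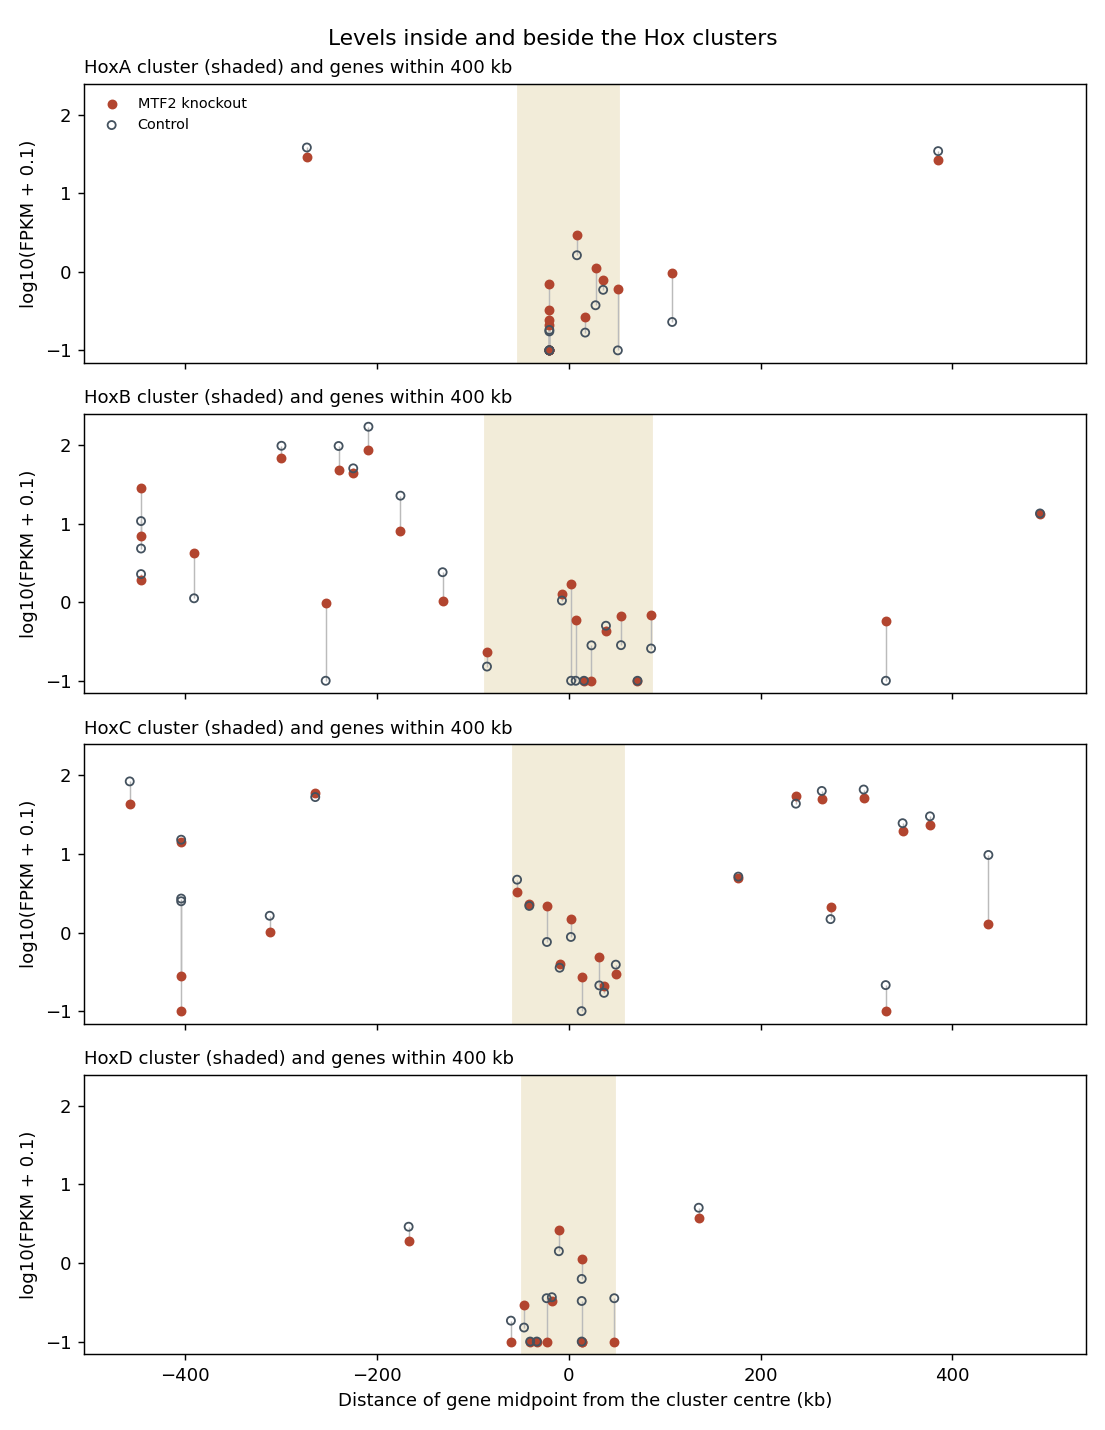
Level, as log10 of FPKM plus 0.1 (y axis), of Hox genes and of other genes within 400 kb of each cluster, by distance of the gene's midpoint from the cluster centre in kb (x axis); red points are knockout cells and open points control cells, joined by a line per gene. The clusters (shaded) lie at or under 4.61 FPKM. Flanking genes reach 171 FPKM beside HoxB, but no more than 4.95 FPKM beside HoxD. Hox genes that share a table locus entry are drawn at the middle of that entry.

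HOX proteins bind DNA with partners of the TALE class, the PBX, MEIS and PKNOX homeodomain proteins. All 9 partner genes were tested, and 2 passed the test as higher, beside 6.9% of all tested genes, and 1 as lower, beside 6.03%. Meis1 had 5.65 FPKM in knockout and 0.878 FPKM in control cells (log2 ratio 2.16, q = 0.018 in the authors' deposited table). Pbx3 had 9.22 FPKM in knockout and 2.74 FPKM in control cells (log2 ratio 1.58, q = 0.00454 in the authors' deposited table). Pbx2, the most abundant partner, had 52.9 FPKM in knockout and 83.2 FPKM in control cells (log2 ratio -0.65, q = 0.0488 in the authors' deposited table). Pbx2 was above every Hox gene in both groups.

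The retinoic acid receptors Rara and Rarg, whose products bind Hox enhancers, fell in knockout cells, as did their partner Rxrb. Of the 12 retinoid genes, 5 were tested, 3 were called lower, beside 6.03% of all tested genes, and 0 higher (Cuffdiff q, with 0 higher also at an unadjusted p under 0.05). Rarg had 49.3 FPKM in knockout and 129 FPKM in control cells (log2 ratio -1.38, q = 0.0012 in the authors' deposited table). Rxrb had 53.1 FPKM in knockout and 99.5 FPKM in control cells (log2 ratio -0.90, q = 0.0012 in the authors' deposited table), and Rara had 25.4 FPKM in knockout and 46.7 FPKM in control cells (log2 ratio -0.87, q = 0.00379 in the authors' deposited table). Cyp26a1, which breaks down retinoic acid, had 166 FPKM in knockout and 0.329 FPKM in control cells, but was not called (q = 0.476 in the authors' deposited table). The caudal genes, which act upstream of trunk Hox genes, and the even-skipped genes number 5, of which only 1, Cdx1, was tested. Cdx1 was called lower, beside 6.03% of all tested genes. It had 7.08 FPKM in knockout and 21.3 FPKM in control cells (q = 0.0012 in the authors' deposited table). Cdx2 had 0.798 FPKM in knockout and 0.573 FPKM in control cells, and Cdx4 was listed at 0 in both. Of the other 6 upstream genes in the table, 2 were tested and 0 called (Cuffdiff q, with 0 also at an unadjusted p under 0.05), beside 12.9% of all tested genes. T, among these 6, had 1.94 FPKM in knockout and 3.91 FPKM in control cells.

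**Figure D5:**
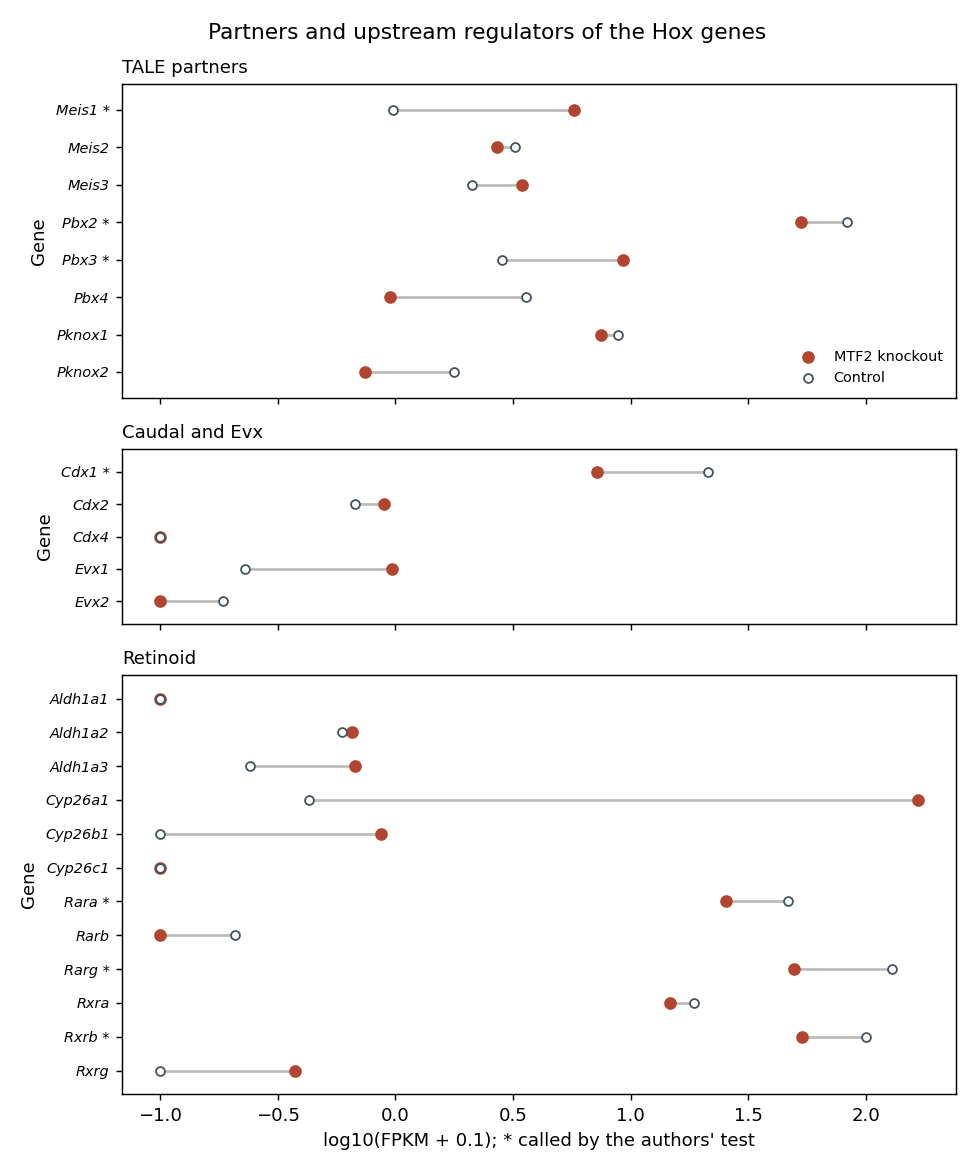
Level, as log10 of FPKM plus 0.1 (x axis), of TALE partner, caudal and even-skipped, and retinoid genes (rows), with knockout cells as red points and control cells as open points. Asterisks mark genes called by the authors' test; Rara, Rarg, Rxrb, Pbx2 and Cdx1 lie lower and Meis1 and Pbx3 higher in knockout cells, and Cyp26a1, with the widest gap, was not called.

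Of the chromatin regulators of Hox genes, the 20 PRC1 genes were all tested and 0 called (Cuffdiff q), beside 12.9% of all tested genes. At an unadjusted p under 0.05, 3 were higher and 1 lower. Cbx7, the highest of them in control cells, had 298 FPKM in knockout and 285 FPKM in control cells. Of 13 PRC2 genes, all tested, 3 were called lower, beside 6.03% of all tested genes, and 0 higher (Cuffdiff q, with 0 higher also at an unadjusted p under 0.05): Mtf2, Phf19 (149 FPKM in knockout and 457 FPKM in control cells) and Aebp2 (33.6 FPKM in knockout and 81.3 FPKM in control cells). Mtf2 is the gene of the knockout itself, so only Phf19 and Aebp2 were called among the other PRC2 genes. Of 11 trithorax genes, which oppose Polycomb at Hox clusters, 10 were tested and Ash2l was called higher, at 213 FPKM in knockout and 100.5 FPKM in control cells. That is 1 of 10, beside 6.9% of all tested genes called higher and 12.9% called in either direction. At an unadjusted Cuffdiff p under 0.05, 2 trithorax genes were higher, Ash2l among them, and 3 were lower. By any amount, 4 of the 11 were higher and 7 lower. The test of Kmt2a, whose product keeps Hox genes active, had failed in the table, at 9.50 FPKM in knockout and 11.9 FPKM in control cells. The 6 ParaHox genes, sister genes of the Hox clusters, include the caudal genes. Only 1 of them, Cdx1, was tested, and it was called lower, beside 6.03% of all tested genes. Gsx2, another ParaHox gene, had 1.40 FPKM in knockout and 0.755 FPKM in control cells and was not tested.

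The ES cell label fitted its markers, with a summed 3433 FPKM over 8 genes in knockout and 4062 FPKM in control cells. All 8 were tested. Tdgf1 alone was called higher, beside 6.9% of all tested genes, and Utf1 alone lower, beside 6.03%. Markers of other cell types also moved. Of 12 primitive endoderm genes, all tested, 10 were called higher, beside 6.9% of all tested genes (Gata4, Gata6, Sox7, Dab2, Pdgfra, Lama1, Lamb1, Col4a1, Col4a2 and Sparc). Sox17 and Foxa2 also had higher values in knockout cells but were not called. Sox17 had 46.1 FPKM in knockout and 0.71 FPKM in control cells, and Foxa2 had 9.92 and 0.904 FPKM. The 12 genes summed to 1579 FPKM in knockout and 236 FPKM in control cells, with none at 0 in either group. Of 7 trophectoderm genes, 4 were tested. Krt8 and Krt18 were called higher, beside 6.9% of all tested genes, and Tfap2c lower, beside 6.03%. The 7 genes summed to 181 FPKM in knockout and 35.6 FPKM in control cells, and most of the knockout sum was the keratin genes Krt18 and Krt8. Krt18 had 117 FPKM in knockout and 9.55 FPKM in control cells, and Krt8 had 52.9 and 6.11 FPKM. Tfap2c had 7.41 FPKM in knockout and 16.9 FPKM in control cells. By any amount, 5 of the 7 were higher and 2 lower, so the sum does not stand for the list as a whole.

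Of 9 mesoderm genes, 5 were tested and 0 called (Cuffdiff q, with 0 at an unadjusted p under 0.05), beside 12.9% of all tested genes. The mesoderm genes summed to 10.8 FPKM in knockout and 13.8 FPKM in control cells. Eomes, the highest in control, had 3.90 FPKM in knockout and 6.07 FPKM in control cells, and Mesp1 and Msgn1 were listed at 0 in both. Of 10 neural genes, 3 were tested and 0 called (Cuffdiff q, with 1 higher at an unadjusted p under 0.05), beside the same 12.9%. The neural genes summed to 11.2 FPKM in knockout and 9.41 FPKM in control cells. Nes, the highest in control, had 3.38 FPKM in knockout and 5.02 FPKM in control cells, and Neurog1, Neurog2 and Olig2 were listed at 0 in both. Of 9 fibroblast genes, 3 were tested and 0 called (Cuffdiff q, with 1 higher and 1 lower at an unadjusted p under 0.05), again beside 12.9%. With so few genes tested per list, 0 called is not a finding of no change. The fibroblast genes summed to 16.7 FPKM in knockout and 9.24 FPKM in control cells. Thy1, the highest in control, had 11.4 FPKM in knockout and 5.14 FPKM in control cells, and Col3a1, Fap and Twist2 were listed at 0 in both. Hand1 stands in both the mesoderm and the trophectoderm list. The part of these cell types in the Hox values was not tested, and in bulk RNA more cells of a type and more RNA per cell cannot be told apart.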

How the data were processed

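The values came from 1 gene table covering 3 MTF2 knockout and 3 control RNA-seq libraries. The authors deposited FPKM, pooled over libraries to a single value for each group. The log2 fold change, the p-value and q-value and the test statistic, a score of the log ratio, were also deposited by the authors, as knockout over control. Tools named in the submitters' processing notes are Cuffdiff 2.2.1.3, TopHat2 2.1.0, deepTools and Bowtie 1.0, and the builds are mm10 and mm9, with no roles. Library depth is unknown. The deposited q equalled a Benjamini-Hochberg adjustment of the deposited p over 11362 tested genes to within 5.2e-07, and the smallest deposited p, 5e-05, was shared by 472 genes.

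Symbols and coordinates are those of the table, with starts moved to 1-based. Of the 24 RefSeq Hox promoter windows (GRCm38.p6), 10 had their gene start within 2 bases of the table's gene edge. Coordinates are given as mm10. Of the Hox genes, 7 share a locus entry (Hoxa2 to Hoxa6, Hoxd3 and Hoxd4), and reads of overlapping transcripts there may be split uncertainly. Whether counting used strand is not stated. The ChIP-seq libraries are not analysed here.

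The members and the 15 gene lists were chosen with earlier results of these data known. Hox genes are named by cluster and position, and of each list every called member, or the highest in control where none was called. A few others were named after their values were seen, among them Cyp26a1, Gsx2, T, Kmt2a, Evx1, Evx2, Cdx2 and Cdx4. Values of a few genes are not reported here or drawn in the plots. The noncoding transcripts of the clusters were not analysed here. Ratios, counts and sums were computed with Python 3.11.15, pandas 2.3.3, numpy 2.4.6 and scipy 1.17.1, and the adjustment and the size rule were tested on simulated data. No test across replicates could be made on pooled values.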

Additional observations from a re-analysis of the deposited data

How the results depend on the processing

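The single call, Hoxb8, held at a q of 0.01. It could not be assessed when Benjamini-Hochberg values were recomputed without genes listed at 0, or from the deposited test statistic, which the table lacks for it, and 0 Hox genes were called in either case. With the median of all tested genes taken off, and with genes at 0.1 FPKM or more, the 2-fold counts were the same. With a pseudocount of 0.1 FPKM, 12 Hox genes were at least 2-fold higher and 4 lower, and with 1 FPKM, 1 was higher, since a pseudocount near these levels sets the size of the ratio. The median log2 ratio was 0.43 with 0.1 FPKM, 0.12 with 1 FPKM, 0.32 over genes at 0.1 FPKM or more, and 0.20 without Hox genes that share a locus entry (chosen after seeing the data). Without the highest gene of each cluster, summed FPKM in knockout and control cells was 3.90 and 1.74 for HoxA, 6.85 and 4.25 for HoxC, and 1.45 and 1.58 for HoxD, and 3.28 in knockout cells for HoxB, whose control sum did not change. The count under 1 FPKM in both groups was 24 at 0.5 FPKM and 34 at 2 FPKM.

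No paired analysis was possible because the table holds 1 pooled value per group, and leaving out libraries could not be run for the same reason. Unknown depth limits every value under 1 FPKM, where an exact 0 cannot be told from a low level.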
